A study of Mus musculus with 6 samples.

Results

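In the wall of the aortic root and ascending aorta of 6 mice, 351 fibroblast-like cells each held transcripts of at least 3 of the genes *Coch*, *Wif1*, *Prss35*, *Npy*, *Cyp2e1* and *Mal*. They were 1.41% of the 24972 cells that passed the quality filter (95% exact Clopper-Pearson interval 1.26 to 1.56%, counting error only). The cells were chosen by measured values. A member had a UMI (unique molecular identifier, 1 captured transcript) of at least 3 of these 6 gate genes, under 5 *Myh11* UMIs per 10000, and no UMI of *Ptprc* or *Pecam1*, the marks of leukocytes and endothelium. The gate genes, *Myh11*, *Ptprc*, *Pecam1* and *Dcn* are therefore given as a description and are no findings. Members were set beside 12697 other cells with under 5 *Myh11* and at least 20 *Dcn* UMIs per 10000, called comparison cells.

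The study addressed Loeys-Dietz syndrome (LDS), a connective tissue disorder with aortic root aneurysm, by single cell RNA sequencing of female mice at 16 weeks of age on the 129SVE background. By the labels, 4 mice were controls (CTL), 2 of them Tgfbr1+/+ alone and 2 Tgfbr1+/+ with Wnt2CRE and the conditional EGFP-L10a tracer, and 2 LDS mice carried Tgfbr1M318R/+. The Cre was driven by a Wnt2 promoter that the methods describe as specific to the cardiac neural crest. Flow-sorted live cells were profiled, and the deposited matrix marks its 6 libraries only by a number from 1 to 6 on each barcode. No source used here pairs a number with a mouse, so genotypes were not compared and no test was run.

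Vascular fibroblasts build the collagen and elastic matrix of the adventitia and, at the root, of the valve leaflets and their annulus. Wnt proteins act through Frizzled receptors. The beta-catenin branch of the pathway ends at TCF and LEF factors, which switch on feedback genes such as *Axin2*, while secreted inhibitors such as Wif1 bind Wnt proteins outside the cell. Cochlin (*Coch*) is a secreted matrix protein best known from the inner ear, and *Mal* encodes a membrane raft protein best known from epithelia and myelin.

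Cells passing the filter held between 18218282 and 38105145 UMIs per library. A member's median depth was 10078 UMIs, against 6061 in comparison cells, and members were deeper in each of the 6 libraries (8330 against 6215.5, 11778 against 8807, 8548 against 6286.5, 6079.5 against 5360, 5562 against 5405.5 and 12034 against 8873.5 UMIs in libraries 1 to 6). Depth makes it easier to detect 3 gate genes, so shares of cells are also given after each cell was thinned to 3000 UMIs. Among cells passing the filter, 76 barcode sequences occurred in more than 1 library, and 0 of them were members.

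Members were found in every library, with 9, 134, 29, 98, 23 and 58 cells in libraries 1 to 6. These were 0.279, 4.69, 0.578, 1.53, 0.410 and 3.11% of the cells passing the filter, where the exact interval of library 1 spans 0.128 to 0.529% and that of library 2 spans 3.94 to 5.53%. Libraries 2 and 6 lay above the others, and their intervals did not overlap those of libraries 1, 3, 4 and 5. When every cell was thinned to 3000 UMIs before the gate, 193 of 22935 cells met it, and 70, 54 and 45 of these were in libraries 2, 4 and 6. Library 1, with 9 members, was left out of the gene comparisons, which needed at least 10 members, and its values are given as a description. Cells with a high doublet score (the top 5% of each library by scrublet) were 5.13% of members and 3.69% of comparison cells.

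**Figure D1:**
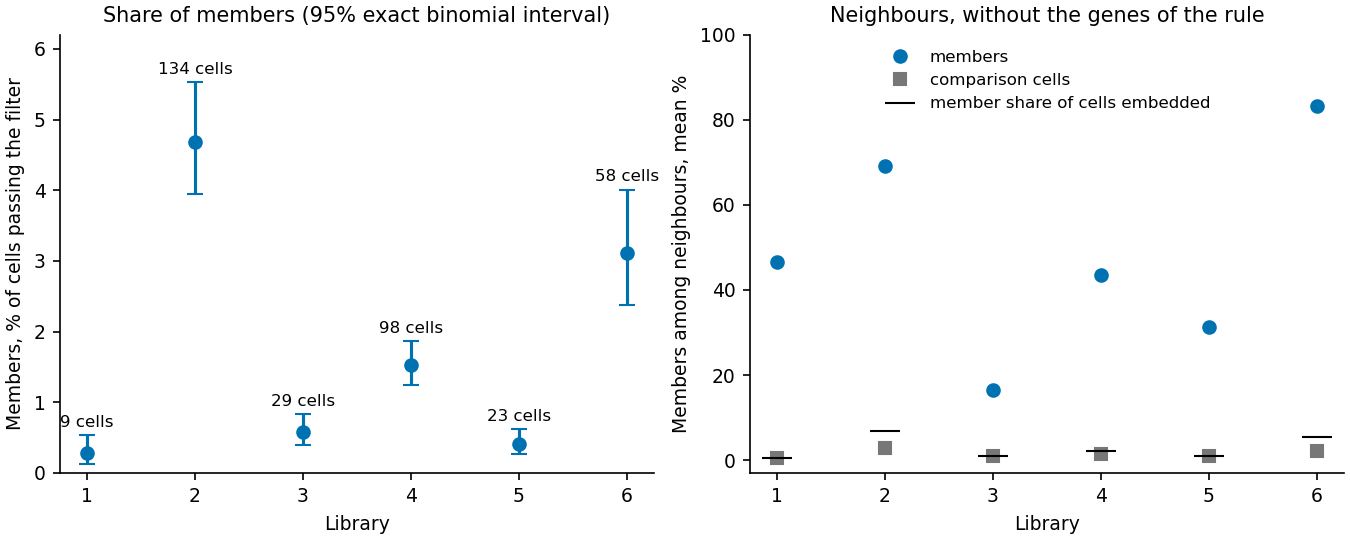
Left, members as a percentage of the cells passing the filter in each of 6 libraries, with 95% exact binomial intervals and the number of members. Right, the mean percentage of members among the 15 nearest neighbours of members (circles) and of comparison cells (squares), with the share of members among the cells embedded (dashes); members lie at 69.1 and 83.3% in libraries 2 and 6 and at 16.6% in library 3.

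The gate was built on 6 genes, and members rarely carried all of them. *Wif1* (chromosome 10 from 121033960 to 121100650) had a UMI in 94.6% of members, *Prss35* in 65.8%, *Mal* in 64.4%, *Coch* (chromosome 12 from 51593341 to 51605771) in 63%, *Cyp2e1* in 61.5% and *Npy* in 18.2%. Of the members, 180 had a UMI of 3 gate genes, 108 of 4, 60 of 5 and 3 of all 6. Just outside the gate, 296 cells that were otherwise eligible had 2 of them. Other cell types rarely carried 3 or more, with 6 of 10258 smooth muscle cells, 0 of 445 endothelial cells and 2 of 365 leukocytes. For the 0 of 445, the approximate upper limit by the rule of 3 (3 of 445) is 0.674%, which is not an exact interval. A further 40 cells with 3 or more gate genes were kept out of the members by the rule, 38 for a UMI of *Pecam1* and 2 for one of *Ptprc*. Of these, 39 met the *Dcn* minimum and stayed among the comparison cells.

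Whether these cells lay together on other genes was described by their nearest neighbours among low-*Myh11* cells of the same library, in principal components computed without the genes of the rule. Of the 15 nearest neighbours of a member, a mean of 46.7, 69.1, 16.6, 43.5, 31.3 and 83.3% were members in libraries 1 to 6. Members were 0.584 to 6.81% of the cells embedded, and comparison cells had 0.374 to 2.84% of members among their neighbours. At least 50% of the neighbours were members for 205 of the 351 cells. At this level were 0 of 29 members in library 3, 2 of 9 in library 1 and 3 of 23 in library 5. The libraries with more members had 42 of 98 (library 4), 102 of 134 (library 2) and 56 of 58 (library 6). A member of a library with few members has few others to find among 15 neighbours. The part of this in the shares was not tested. Another 94 cells outside the gate also had 50% or more members around them; 51 of these had 2 gate genes, 17 had 1 and 32 had a *Ptprc* or *Pecam1* UMI.

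The label fibroblast-like was checked against marker lists. All 351 members had a *Lum* UMI and 98.0% had a *Dpt* UMI, both matrix proteins of fibroblasts, and *Lum* lay at a median of 3632 CPM (counts per 1e+06 UMIs of the summed cells; lowest 2897, highest 5071 over the 6 libraries) against 4195 CPM in comparison cells. *Dpt* was at 961 against 862 CPM. *Pdgfra*, the PDGF receptor used to mark fibroblasts, was at 67.0 against 251 CPM, and *Clec3b* at 116 against 1673 CPM. Of the 13 genes of that list outside the rule, 8 were lower (at least 2-fold in each of 5 libraries) and 0 were higher. Defining markers of several other cell types were at or near 0. *Cdh5* and *Vwf* of endothelium, *Cd3e* of T cells, *Sox10* of Schwann cells, *Msln* of mesothelium and *Col2a1* of cartilage had 0 UMIs in all members together, and *Tyrobp* and *Fcer1g* of myeloid cells had 1 UMI each. The sum of the smooth muscle list was 514 to 2587 CPM in members (median 1313) and 1152 to 2455 CPM in comparison cells (median 1505).

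The other marker lists were summed without the genes of the rule, and the median over the 6 libraries is given. The sum was lower in members, with ranges that did not overlap, for the lists of endothelium and adipocytes. The endothelial list was at 4.51 against 14.7 CPM (3 of 8 genes at 0 UMIs). The adipocyte list was at 108 against 245 CPM (2 of 8 at 0). The mesothelial list (0 against 1.69 CPM, 7 of 8 at 0) held 1 UMI in all members, too few to compare. The 78451 member UMIs of library 1, for example, cannot show a level near 1.69 CPM. The endothelial values are partly set by the rule, which left out cells with a *Pecam1* UMI among members while 14.4% of comparison cells had one. The ranges overlapped for the lists of pericytes (199 against 419.6 CPM, 2 of 8 at 0), melanocytes (12.1 against 21.3 CPM, 4 of 7 at 0), cardiomyocytes (23.8 against 31.4 CPM, 3 of 10 at 0), cartilage and tendon (832 against 1079.9 CPM, 3 of 12 at 0) and valve interstitial cells (4988 against 4832 CPM). Single genes of these lists went the other way, with median levels of *Rgs5* of pericytes at 80.4 against 51.7 CPM, *Tnnt2* of cardiomyocytes at 20.1 against 11.3 CPM and *Scx* of tendon at 75.9 against 13.6 CPM. The list of nerve sheath fibroblasts was at 434 to 739 CPM in members (median 532) and 185 to 327 CPM in comparison cells (median 236), with 1 of 10 genes at 0 and none of the 3 compared called. Most of that sum was *Sox9*, at a median of 483 against 181 CPM, a gene that the cartilage and valve lists also hold.

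Genes were compared within each library by the log2 ratio of CPM in members over comparison cells, with a prior of 0.5 UMI, in the 5 libraries with at least 10 members. Of 8087 genes whose mean of both median CPM values reached 10, 161 were at least 2-fold higher in all 5 libraries, which is 1.99% of the genes compared, and 232 were at least 2-fold lower in all 5, which is 2.87%. The median log2 ratio of all 8087 genes was 0.06. A gene could pass the minimum through members alone and then had to be higher. Likewise, a gene that passed through comparison cells alone had to be lower. The list counts and medians below can hold genes of both kinds. Among the 7323 genes at 10 CPM or more in both, 90 were higher and 118 lower. Since these are genes of the same cells that the gate chose, the ratios describe the members and have no p-value. The counts depend on low genes, and with a prior of 5 UMI in place of 0.5 they were 71 and 120.

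*Wnt16*, a secreted Wnt ligand, had the largest median ratio of the genes called. It was at 212, 59.0, 123, 244 and 193 CPM in members of libraries 2 to 6, against 7.83, 3.75, 3.46, 5.26 and 6.74 CPM in comparison cells, a median log2 ratio of 4.70 (3.49 to 4.89). The 9 members of library 1 were at 306 CPM, against 2.12. Members of library 3 were the lowest and still lay above the comparison cells of every library. A UMI of *Wnt16* was found in 57.3% of members, 1.80% of comparison cells and 1.10% of leukocytes, and in 32.0, 0.874 and 0.639% after thinning. Smooth muscle cells carried it too, in 40.9% (22.2% thinned), so its presence did not separate members from smooth muscle. The gene lies on the plus strand of chromosome 6, from 22288227 to 22298522 (mm10, GENCODE M21).

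*Lef1*, a nuclear factor of the beta-catenin branch, had the ninth largest ratio. Members of libraries 2 to 6 held 25.4, 16.4, 23.0, 22.2 and 40.9 CPM, and comparison cells 0.323, 0.700, 0.729, 0.544 and 0.688 CPM, a median log2 ratio of 4.03 (2.61 to 5.31). The sum rests on 93 UMIs in members and 47 in all comparison cells. A UMI was seen in 19.7% of members, 0.347% of comparison cells, 5.48% of leukocytes and 0.0195% of smooth muscle cells. *Rspo3* (chromosome 10 from 29452416 to 29535867), a secreted enhancer of Wnt signalling, was at 221, 118, 225, 237 and 433 CPM, against 22.7, 16.5, 27.2, 22.2 and 46.4 CPM, a median log2 ratio of 3.20 (2.72 to 3.27). Its ranges did not overlap, and its ratio varied less over the libraries than that of *Wnt16* or *Lef1*. A *Rspo3* UMI was found in 68.9% of members, 7.30% of comparison cells and 16.65% of smooth muscle cells.

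Among the other Wnt ligands and receptors, *Wnt11* was higher at 71.8 against 18.6 CPM (median log2 ratio 2.16), and the receptor gene *Fzd4* was lower at 5.85 against 85.1 CPM (-3.53). Of 31 genes on that list, 15 passed the minimum, 3 were higher and 1 lower in every library by the criterion, with a list median of 0.60. Of 9 genes compared on the list of Wnt targets and feedback genes, 4 were higher (*Lef1*, *Axin2*, *Nkd2* and *Tnfrsf19*) and 0 lower, with a list median of 1.08, which was 0.65 in library 5 and 1.94 in library 4. *Lef1*, *Axin2* and *Tnfrsf19* were under 10 CPM in comparison cells and passed the minimum through members alone, so those 3 could only lie on the higher side, and the count and median are a description. *Axin2*, a scaffold of the beta-catenin destruction complex, was at 39.7, 26.2, 28.7, 37.0 and 67.2 CPM in members of libraries 2 to 6 and at 5.89, 6.25, 5.88, 7.25 and 4.54 CPM in comparison cells. *Nkd2*, which binds Dishevelled, was at 79.0 against 17.6 CPM. The other TCF factors did not follow *Lef1*, with *Tcf7l2* at a median log2 ratio of -0.24 (-0.62 to 0.35) and *Tcf7l1* at -0.51 (-2.11 to -0.33). Of 6 secreted modulators compared, 1 was higher and 2 lower (list median -1.84). *Dkk3* was higher at 880, 1078, 1160, 1390 and 919 CPM, against 251 to 328 CPM, *Sfrp2* and *Sfrp4* were lower with ratios of -2.51 and -3.99, and *Frzb* lay on both sides of 0 (median 0.10, -1.09 to 0.83).

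Promoter windows of the leading Wnt genes are shown because *Wnt16* and *Lef1* stood highest among them. They were taken from RefSeq (GRCm38.p6) and cover 250 bases before to 50 bases after a transcription start. Capitals mark the letters CTTTGA, a core motif of TCF and LEF factors, or AGATAA, a core motif of GATA factors, searched on both strands. The *Wnt16* window (chr6:22287977-22288276, plus strand) held neither, and 3 of the 4 *Lef1* windows held neither. The window of an internal *Lef1* start (chr3:131156044-131156343, plus strand) held the first motif in reverse at positions 71 and 131 and the second in reverse at position 268, counted from its first base.
Wnt16: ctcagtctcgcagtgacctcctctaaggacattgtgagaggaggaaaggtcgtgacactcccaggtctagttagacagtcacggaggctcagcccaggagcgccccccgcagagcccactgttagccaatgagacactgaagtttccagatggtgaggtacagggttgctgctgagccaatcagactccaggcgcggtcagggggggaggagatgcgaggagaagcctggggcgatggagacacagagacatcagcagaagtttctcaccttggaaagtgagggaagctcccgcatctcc
Lef1, internal start: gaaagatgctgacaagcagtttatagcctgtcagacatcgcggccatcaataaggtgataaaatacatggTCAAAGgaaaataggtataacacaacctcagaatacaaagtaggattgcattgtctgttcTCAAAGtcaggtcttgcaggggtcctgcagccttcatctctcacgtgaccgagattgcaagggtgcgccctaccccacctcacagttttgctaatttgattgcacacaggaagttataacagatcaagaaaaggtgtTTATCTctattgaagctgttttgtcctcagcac

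CTTTGA was present in a window of 21 of the 112 higher genes with a promoter in the table (18.8%), 26 of 167 lower genes (15.6%) and 13.6% of all genes compared. AGATAA was present for 9 of 112 higher genes (8.04%), 16 of 167 lower genes (9.58%) and 7.02% of all genes compared. Of all 27025 genes in the table, 18.2 and 12.7% had a window with these motifs, as did 16.0 and 11.2% of its 32851 windows. Reads of the 3' end do not tell which *Lef1* start was in use, and the windows are a description of the letters alone.

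Transcription factors of heart and outflow tract development were among the higher genes. *Gata4* (chromosome 14 from 63198922 to 63271692) was at 111, 147, 146, 126 and 118 CPM in members of libraries 2 to 6, against 24.6, 23.4, 29.0, 32.2 and 17.5 CPM in comparison cells, a median log2 ratio of 2.31 (1.85 to 2.71). It was found in 63.2% of members and 12.6% of comparison cells (26.7 and 6.54% thinned), and in 0.822% of leukocytes. *Gata3* (chromosome 2 from 9857078 to 9890034) was at 55.9, 59.0, 21.5, 111 and 58.5 CPM, against 2.69 to 7.43 CPM, a median of 3.36 (2.71 to 3.98). *Gata6* differed less, with a median of 0.66 (0.48 to 0.79). *Zfpm1*, a cofactor of GATA factors, was at 56 against 6.65 CPM (2.94). The groups did not overlap for *Gata3* or *Gata4*.

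Of 36 factors compared on the list of developmental transcription factors, 4 were higher (*Gata4*, *Tbx3*, *Tbx20* and *Scx*) and 6 lower (*Tcf21*, *Osr1*, *Prrx2*, *Meox2*, *Foxd1* and *Nr2f2*), and the list median of 0.08 was close to that of all genes. *Tbx20*, a T-box factor of endocardial cushions, was at 189, 419, 210, 251 and 129 CPM, against 56.3 to 115 CPM, and its ratio was just past the criterion in 3 libraries (median 1.10, 1.09 to 2.86). *Scx*, the tendon factor scleraxis, was at 100, 138, 43.1, 51.7 and 26.3 CPM, against 6.88 to 23.9 CPM (median 1.83). *Tbx3* had a median of 2.0 (1.92 to 3.38). *Osr1*, a factor of mesenchymal progenitors, was at 10.4, 3.28, 8.61, 22.2 and 7.31 CPM, against 104 to 185 CPM (-4.10), and *Meox2* at 0.650, 3.28, 2.87, 22.2 and 11.7 CPM, against 47.4 to 125 CPM (-3.83). *Gata3*, *Gata6* and *Zfpm1* were not on the fixed list and were named after their values were seen.

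**Figure D2:**
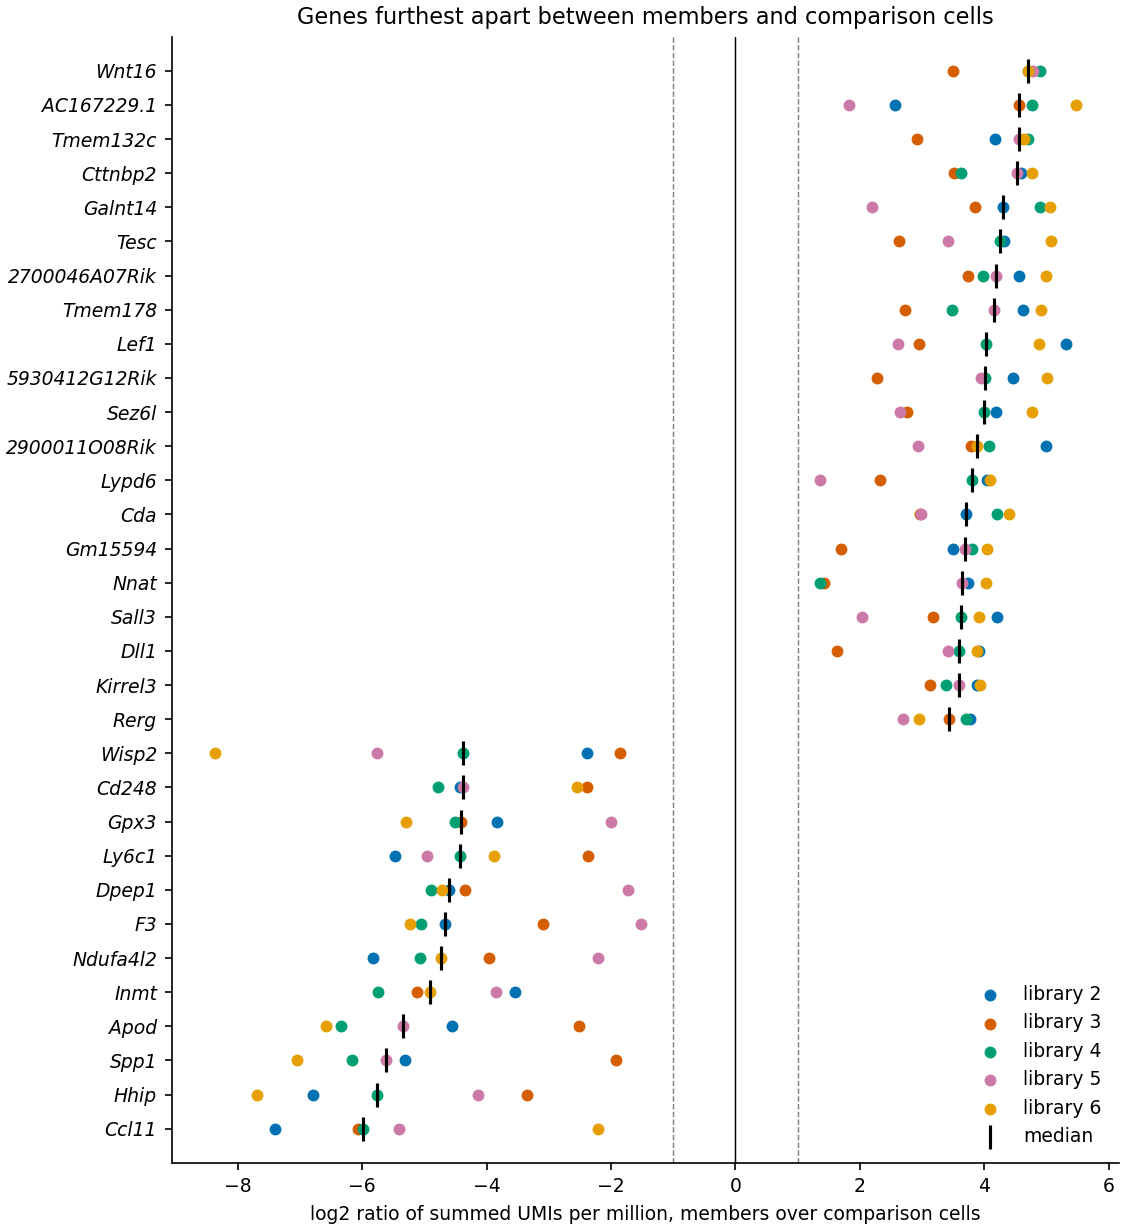
The log2 ratio of CPM in members over comparison cells for the 20 called genes of largest median ratio and the 12 of smallest; points are libraries, black bars the medians and dashed lines a 2-fold difference. *Wnt16* lies at 3.49 in library 3 and near its median of 4.70 in the others, and *Ccl11* has a median of -5.99 and lies at -7.41 in library 2, where members had 0 UMIs and the ratio depends on the prior.

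The remaining leaders of the 161 higher genes were a mixed set. *Cttnbp2*, a cortactin-binding protein, had a median log2 ratio of 4.52 (3.52 to 4.76) and a UMI in 47.0% of members against 1.83% of comparison cells. *Gm15594*, which lies inside *Cttnbp2* on the other strand, followed it at 3.69 (1.69 to 4.04). *AC167229.1*, a long noncoding RNA that GENCODE M21 lists as Gm35533, was at 4.56 (1.82 to 5.47) and lies 29451 bases from *Kitl*, the gene of KIT ligand, which was itself higher at 146, 134, 172, 163 and 175 CPM, against 22.8 to 26.0 CPM (2.65). *Tmem132c* was at 4.55, *Galnt14*, a glycosyltransferase, at 4.30, *Tesc*, a calcium-binding protein, at 4.25, and *Tmem178* at 4.16. A *Tesc* UMI was found in 32.2% of members and 1.56% of comparison cells, but also in 22.4% of smooth muscle cells. *Dll1*, a Notch ligand, was at 45.5, 9.83, 64.6, 44.3 and 26.3 CPM, against 0.816 to 4.69 CPM (3.59). Other higher genes among the first 20 were *2700046A07Rik*, *5930412G12Rik*, *Sez6l*, *2900011O08Rik*, *Lypd6*, *Cda*, *Nnat*, *Sall3*, *Kirrel3* and *Rerg*, at medians of 4.19 to 3.44. Each of these 20 genes was found in 12.3 to 57.3% of members, so none was seen in every cell at this depth.

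*Trf*, the gene of the iron carrier transferrin, was at 600, 2431, 1126, 281 and 368 CPM in members of libraries 2 to 6, against 50.4 to 122 CPM, a median log2 ratio of 3.12 (1.45 to 4.30). Library 3 held the most. A *Trf* UMI was present in 76.4% of members, 13.5% of comparison cells and 58.9% of leukocytes. The list of iron and metal handling, which leaves out *Trf*, held no higher gene. Of 9 compared, 1 was lower (*Steap4*, a metalloreductase, -2.27), and the ferritin light chain gene *Ftl1* lay at 0.23 (0.06 to 0.35).

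Class II major histocompatibility genes, which present antigen and are typical of immune cells, were higher in members although the gate left out cells with *Ptprc*. *H2-Ab1* was at 473, 216, 340, 103 and 228 CPM in libraries 2 to 6, against 42.9, 18.5, 26.0, 8.34 and 27.5 CPM, a median log2 ratio of 3.43 (3.02 to 3.67). It was found in 63% of members, 4.03% of comparison cells and 62.2% of leukocytes. *Cd74*, the invariant chain, ranged from 170 to 1878 CPM in these libraries, against 63.6 to 193 CPM (2.63; the ranges overlap), and *H2-Eb1*, *H2-Aa*, *H2-DMa* and *H2-DMb1* had medians of 3.42, 2.96, 3.17 and 2.60. *Ciita*, the coactivator of class II genes, had 12 UMIs in all members, in 3.13% of them, against 0.244% of comparison cells and 19.7% of leukocytes. Over the leukocyte list, 6 of 10 genes had 3 or fewer UMIs in members, with *Ptprc* (by the rule) and *Cd3e* at 0, and *Cd74*, the 1 gene that passed the minimum, was higher. That list summed to 189 to 1889.5 CPM in members (median 667) and 41.7 to 232 CPM in comparison cells (median 147), and the part of leukocyte RNA in the class II values was not tested. *Cxcl10*, an interferon-induced chemokine, was also higher at 44.9, 32.8, 155, 73.9 and 126 CPM, against 3.95 to 29.8 CPM (2.58), with a UMI in 14.5% of members and 48.5% of leukocytes.

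More collagens were lower than higher in members. *Col3a1*, *Col1a2* and *Col1a1*, the fibrillar collagens of the vessel wall, were at 646 against 3614 CPM, 681 against 2561 CPM and 1168 against 3206 CPM (medians of 5 libraries), with median log2 ratios of -2.22, -1.75 and -1.26. Each was lower in all 5 libraries. Of 24 collagens compared, 8 were lower (also *Col4a1*, *Col4a2*, *Col5a1*, *Col6a3* and *Col14a1*) and 1 higher, for a list median of -1.58. The exception was *Col9a3* (23.4, 49.1, 17.2, 22.2 and 65.8 CPM, against 1.24 to 4.75 CPM; 2.99). *Col9a1*, another chain of cartilage collagen IX, is in none of the lists and was named after its values were seen. It was at 16.3, 39.3, 24.4, 22.2 and 19.0 CPM, against 1.16 to 4.65 CPM (2.70). Cartilage-like cells, described below, also held *Col9a3* and *Col9a1*, at medians of 22.4 and 27.8 CPM (members 23.4 and 22.2 CPM). The log2 ratios of members over that class were 1.08 (-0.18 to 3.17) and -0.18 (-0.57 to 4.26).

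Proteoglycans divided. *Vcan*, the large hyaluronan-binding versican, was at 799, 773, 732, 769 and 829 CPM in members, against 127 to 207 CPM (median 1.95, 1.87 to 2.70), and it was found in 94.3% of members. *Hapln1*, which links versican to hyaluronan and lies 43659 bases from *Vcan* on chromosome 13, was at 51.4, 52.4, 48.8, 59.1 and 30.7 CPM, against 2.48 to 6.90 CPM (3.29). The syndecan gene *Sdc3* was at 265 to 343 CPM, against 44.9 to 49.1 CPM (2.69). The collagen crosslinker *Lox* was lower at 1.95, 9.83, 1.44, 14.8 and 1.46 CPM, against 38.7 to 139 CPM (-4.10), and so were the small proteoglycan genes *Podn* (-4.29), *Ogn* (-3.96) and *Aspn* (-3.23) and the microfibril genes *Mfap5* (-3.32) and *Fbn1* (-1.59). In all, 3 of 39 genes of that list were higher and 11 lower, with a median of -0.78.

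No gene was higher among 30 compared of basement membrane and adhesion glycoproteins or among 35 compared of proteases and their inhibitors, and 13 were lower in each. The list medians were -1.51 and -1.10. *Smoc2* was at 21.5 against 428 CPM (-4.24), the fibronectin gene *Fn1* at 29.6 against 169 CPM (-2.33) and the aggrecanase gene *Adamts5* at 13.1 to 24.8 CPM in 3 libraries and 7.39 and 8.61 CPM in libraries 5 and 4, against 128 to 196 CPM (-3.58). *Postn*, the matricellular protein periostin, had higher values in members of each library, 965, 1016, 961, 702 and 726 CPM against 192, 307, 281, 247 and 583 CPM, and missed the criterion through library 6 (median 1.72, 0.32 to 2.33). *Plat*, tissue plasminogen activator, had a median of 1.56 (0.56 to 2.16).

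**Figure D3:**
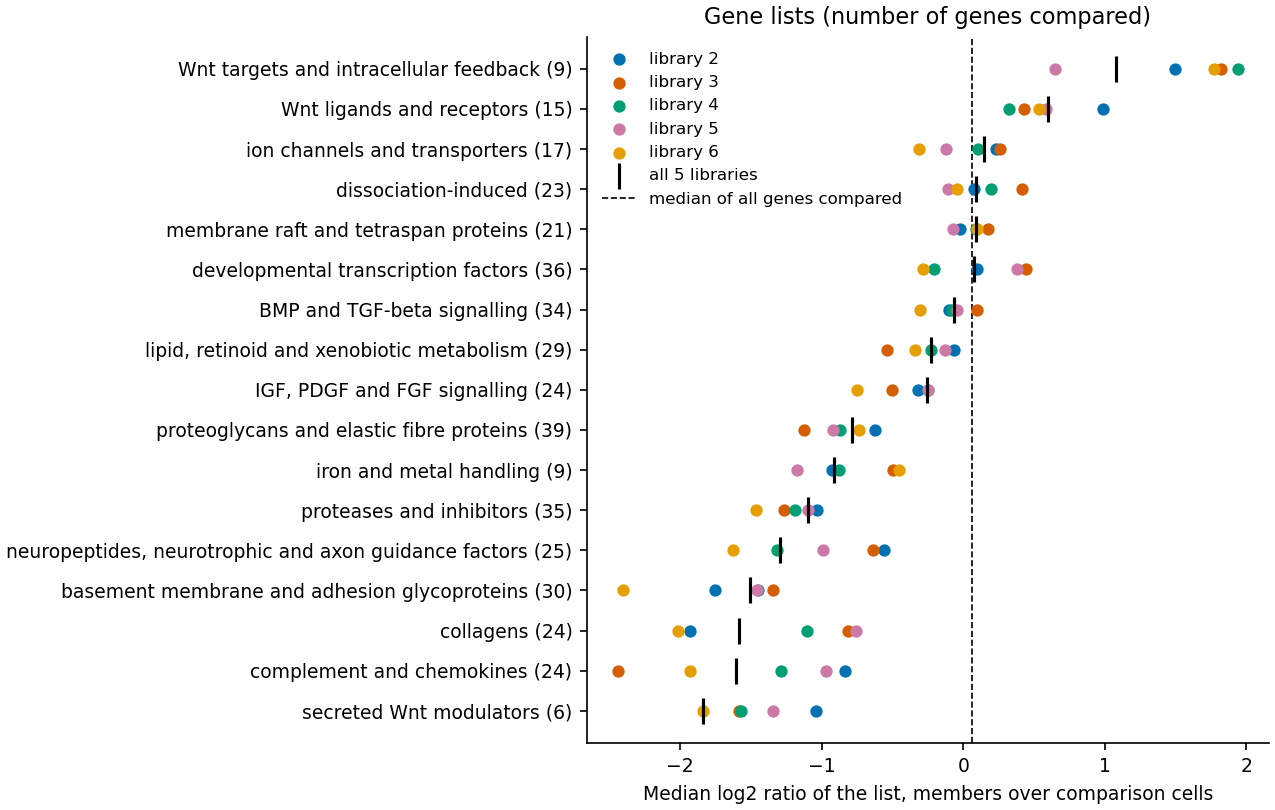
The median log2 ratio, members over comparison cells, of 17 gene lists with the number of genes compared in each; points are libraries 2 to 6, black bars the median over genes of their median ratios, and the dashed line the median of all genes compared (0.06). Wnt targets and feedback genes lie at 1.08, where 3 of the 9 genes passed the minimum through members alone, and secreted Wnt modulators at -1.84.

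Among the 12 genes with the smallest ratios, several had under 10 UMIs in all members. The chemokine gene *Ccl11* had 9 UMIs in all members and was at 0, 0, 1.44, 0 and 11.7 CPM in libraries 2 to 6, against 54.9, 109, 136, 154 and 56.8 CPM in comparison cells (-5.99). *Hhip*, an inhibitor of Hedgehog ligands, had 4 UMIs in members, at 0, 9.83, 1.44, 0 and 0 CPM, against 35.9, 115, 116, 61.7 and 151 CPM (-5.76). *Spp1* (osteopontin), *Apod* and *Inmt* had 7, 3 and 8 UMIs, with median ratios of -5.61, -5.35 and -4.91. Where a library had 0 UMIs of a gene, its ratio depends on the prior and is no bound. A *Ccl11* UMI was found in 8.21% of comparison cells and a *Spp1* UMI in 3.19%, so these levels came from a small part of those cells. Low *Ccl11* was not particular to members. Of the fibroblast-like classes described below, valve-like cells held 0 *Ccl11* UMIs, cartilage-like cells a median of 1.60 CPM and the Hhip class 35.1 CPM. *Gpx3*, an extracellular glutathione peroxidase, was at 27.3, 19.7, 24.4, 163 and 13.2 CPM, against 394 to 666 CPM (-4.42). The coagulation initiator *F3* was at 12.4, 75.3, 17.2, 170 and 21.9 CPM, against 324 to 850 CPM (-4.68), and *Dpep1* at 15, 19.7, 15.8, 214 and 27.8 CPM, against 372 to 753 CPM (-4.61). Library 5, with 23 members, was the highest of the 5 for all of the last 3 genes. *Ndufa4l2*, *Ly6c1*, *Cd248* and *Wisp2* completed the 12 lowest.

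More complement and chemokine genes were lower than higher. Of 24 complement and chemokine genes compared, 9 were lower and *Cxcl10* was higher, and the list median was -1.60. The complement gene *C3* was at 32.5 against 620 CPM (-4.11), *Il6* at 1.46 against 39.1 CPM (-4.10) and *Cfb* at 2.60, 0, 0, 7.39 and 2.92 CPM, against 17.7 to 79.9 CPM (-4.22). None of 23 genes induced by tissue dissociation was called in either direction, and their list median was 0.09. *Ier3*, an early response gene of that list, was nonetheless at 3066 to 5288 CPM in members, against 908 to 2092 CPM (median 1.59, 0.99 to 1.78), just short of the criterion in 1 library.

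Growth factor and neural genes were mixed. Of 34 genes of BMP and TGF-beta signalling compared, *Bmp5* was higher (19.5, 36.0, 63.2, 81.3 and 70.2 CPM, against 2.48 to 7.31 CPM; 3.04) and the activin antagonist *Fst* lower (-3.39), with a list median of -0.06. *Tgfbr1*, the gene mutated in the LDS mice, lay at a median log2 ratio of 0.11 (-0.16 to 0.38), and *Tgfbr2* at -0.05. Of 25 neuropeptide, neurotrophic and guidance genes, 3 were higher and 7 lower (list median -1.29). The heparin-binding growth factor gene *Ptn* was among the most abundant higher genes, at 1080, 560, 1905, 1582 and 3688 CPM, against 150 to 321 CPM (2.57, 1.88 to 3.88). *Ncam1*, which encodes a neural adhesion protein, had a median of 1.79, while the opioid precursor gene *Penk* was lower at -3.28. *S100b*, known from glia and cartilage, was in 57.8% of members and 17.0% of comparison cells (2.22), and the glial genes *Sox10*, *Kcna1* and *Gfra3* had 0 UMIs. The glial list of 10 genes, *S100b* included, summed to 140.2 to 313 CPM in members and 71.2 to 89.8 CPM in comparison cells.

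Metabolic, transport and growth factor lists held calls in both directions. Of 29 genes of lipid, retinoid and xenobiotic metabolism, *Aldh1a1*, a retinoic acid synthase, was higher at 403 to 807 CPM, against 83.1 to 104 CPM (2.20), as was *Cyp4b1* (2.86), and 8 were lower, with a list median of -0.23. Among 17 ion channels and transporters, the sodium pump subunits *Atp1b1* (1.79) and *Atp1b3* (1.68) were higher and 2 genes were lower, such as the lipid transporter gene *Abca8a* (-3.0). None of 21 membrane raft and tetraspan genes was called, although the gate gene *Mal* belongs to that family of proteins. Of 24 IGF, PDGF and FGF genes, *Kitl* and *Fgfr3* (1.56) were higher and 6 lower, such as *Fgf7* (-3.28) and *Igfbp6* (-3.66). Further higher genes outside the lists, named after their values were seen, were the cyclin kinase inhibitor genes *Cdkn2a* (3.24) and *Cdkn2b* (2.37), *Id4* (3.20), the apoptosis regulator *Bok* (3.16), the protein C receptor gene *Procr* (2.82), the adhesion gene *Cadm1* (3.35), the natriuretic peptide receptor gene *Npr1* (1.87), and *Notch1*, *Notch2* and the Notch target *Hes1* (1.80, 1.65 and 1.68).

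Levels outside the gate changed in steps with the number of gate genes found in a cell. Shares and CPM are those of members and, below 3 gate genes, of comparison cells without *Ptprc* and *Pecam1* UMIs. *Wnt16* was found in 0.625, 4.76, 23.0, 46.1, 64.8 and 75.0% of cells with 0 to 5 gate genes, *Rspo3* in 5.25, 15.3, 42.2, 63.9, 73.1 and 75.0%, and *Gata3* in 1.05, 4.40, 17.7, 25.6, 33.3 and 50.0%. *Tbx20* was already at 65.6% with 2 gate genes and at 70.6, 68.5 and 70.0% with 3, 4 and 5. *Comp*, a cartilage and tendon matrix gene, went the other way past 1 gate gene, from 37.3 and 34.0% of cells with 1 and 2 gate genes to 17.8, 14.8 and 13.3% with 3, 4 and 5. Cells with more gate genes were also deeper, with median UMIs of 5695, 6772, 7681.5, 7830, 11249 and 11978 for 0 to 5 gate genes (all low-*Myh11* cells without *Ptprc* and *Pecam1* UMIs), and the part of depth in these shares was not tested. In CPM, *Wnt16* was at 1.09, 10.7, 59.5, 146, 179 and 248.

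**Figure D4:**
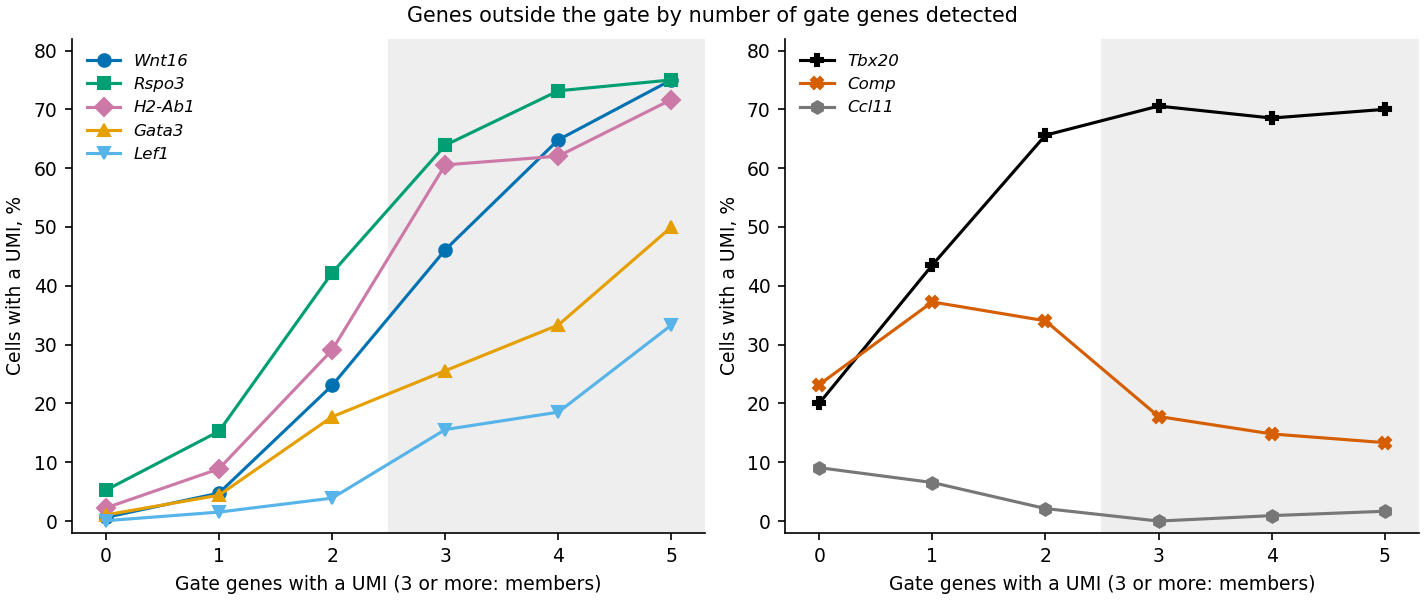
The percentage of cells with a UMI of genes outside the gate, by the number of gate genes with a UMI. The shaded part holds members, and the rest holds comparison cells without *Ptprc* and *Pecam1* UMIs. *Wnt16* goes from 0.625% at 0 gate genes to 75.0% at 5, and *Comp* is highest at 1 (37.3%).

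Members were also set beside 3 other fibroblast-like classes, each given by detection of its own genes: 142 valve-like cells with both *Pthlh* and *Cst6*, 454 cartilage-like cells with at least 2 of *Chad*, *Comp* and *Cilp2*, and 2852 cells with at least 2 of *Hhip*, *Dio2* and *Cpxm2* (the Hhip class). Of these, 0, 8 and 11 cells were also members and were kept out of the class. Against valve-like cells, 171 of 7829 genes were higher in members in all 5 libraries (2.18%) and 136 lower (1.74%). Against cartilage-like cells, 116 of 7881 were higher (1.47%) and 87 lower (1.1%), which became 134 and 147 in cells thinned to 3000 UMIs, where 4 libraries held enough cells. Against the Hhip class, 258 of 7961 were higher (3.24%) and 282 lower (3.54%). These 3 comparisons use the same members, so they are not independent of each other or of the main one.

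Valve interstitial genes were a mixed case. Members had *Postn*, *Vcan*, *Tbx20*, *Msx1*, *Sox9*, *Twist1* and *Hapln1* above comparison cells, with median log2 ratios of 1.72, 1.95, 1.10, 1.58, 1.20, 0.99 and 3.29. Of the 10 genes compared on that list, 3 were higher by the criterion and 2 were lower, *Col1a1* among the latter. *Pthlh* and *Cst6*, which set the valve-like class, had 9 and 22 UMIs in all members, and *Tnc* had 1. Against the valve-like cells themselves, *Vcan* was still higher in members (773 against 234 CPM, median log2 ratio 1.71, 0.62 to 1.91), as were *Tbx20* (210 against 17.7 CPM) and *Gata4* (126 against 15.8 CPM, 2.65). *Wnt16* had 0 UMIs in the valve-like cells and was at 177 CPM over the summed members of 5 libraries. With 3 UMIs over the summed class as the floor, the ratio of the sums is at least 59.8-fold, and for *Lef1* and *Axin2*, also with 0, at least 9.15-fold and 14.1-fold. These bounds hold for the sums and not for each library. *Cytl1*, a cytokine-like gene, was at 54.0 CPM in members and 2510 CPM in valve-like cells.

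Cartilage-like cells had the fewest genes apart from members, and in thinned cells they had fewer than the Hhip class. Valve-like cells could not be compared there. The summed depth of the classes differed, with 1013617 UMIs in valve-like, 3103390 in cartilage-like and 17221900 in Hhip class cells. The part of depth in these counts was not tested. *Scx* of the cartilage-like cells exceeded that of members (165 against 51.7 CPM, members over class -1.62, -1.91 to -0.51). So did *Frzb* (545 against 155 CPM, -1.91), and *Clu* lay on both sides of 0 (-0.18, -0.73 to 1.60). *S100b* was at 200 CPM in members and 131 CPM in these cells (0.54, 0.03 to 0.64). *Spp1* was at 0 CPM in the median library of members against 2103 CPM. Members were higher in *Wnt16* (193 against 3.21 CPM), *Rspo3* (225 against 19.8 CPM, 3.39), *Trf* (600 against 53.1 CPM, 3.77) and *H2-Ab1* (228 against 11.4 CPM, 3.56). The Hhip class had the most genes apart, among them *F3* at 21.9 CPM in members and 1501 CPM in the class, *Lox* at 1.95 and 240 CPM, and *Gata4* at 126 and 5.19 CPM.

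**Figure D5:**
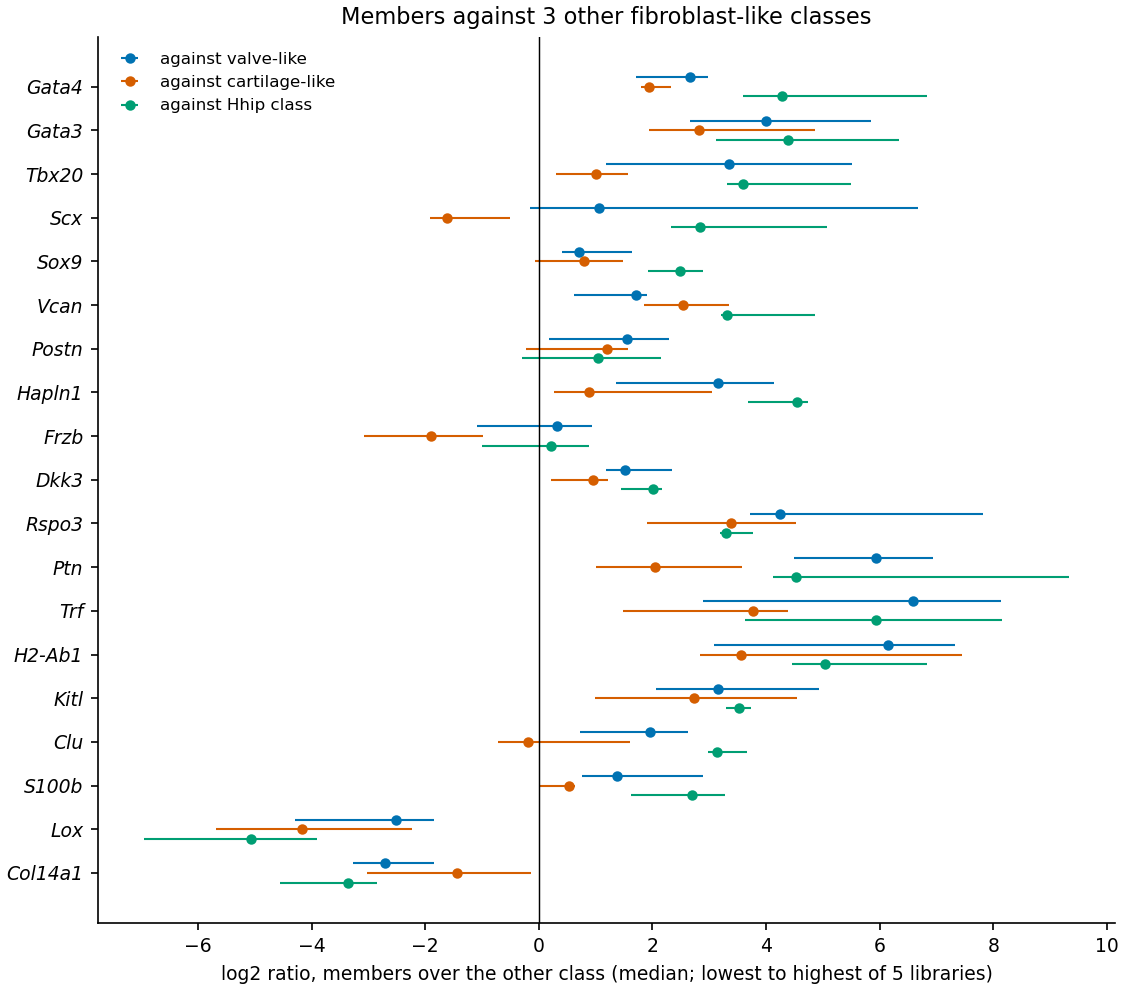
The log2 ratio of CPM in members over valve-like, cartilage-like and Hhip class cells for 19 genes; points are the median and bars the lowest to the highest of 5 libraries. *Gata4*, *Gata3* and *Rspo3* lie above 0 against all 3 classes, *Lox* and *Col14a1* below 0, and *Scx* and *Frzb* are lower in members than in cartilage-like cells.

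Variance over the mean of depth-scaled counts among members was highest for 10 genes. They were *Malat1*, *Mgp*, *Ctgf*, *Cd74*, *Clu*, *Gsn*, *Fos*, *Cytl1*, *Cxcl1* and *Mt1*. This measure favours abundant genes and does not rank relative spread. *Malat1*, the first by it, was at 207 UMIs per 10000 at the 10th percentile of members, 470 at the median and 858 at the 90th. *Mgp*, an inhibitor of calcification, was at 17.1 UMIs per 10000 at the 10th percentile of members, 70.5 at the median and 252 at the 90th. *Clu* was at 1.09, 11.8 and 78.8 UMIs per 10000, and *Cd74* at 0, 0 and 32.4. Libraries took part in this spread: *Ctgf*, a matricellular gene, was at 284 CPM in members of library 6 and 5671 CPM in library 3, and *Clu* at 871 and 6241 CPM in the same libraries. *Fos*, induced by dissociation, was at 3660 to 10659 CPM over the 6 libraries.

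The tracer was rare in members. Libraries 1 to 4 together held 879 *GFP* UMIs and libraries 5 and 6 held 8 and 6, while the labels give the tracer to 2 mice. In libraries 1 to 4, a *GFP* UMI was found in 2 of 270 members (0.741%, exact interval 0.0898 to 2.65%), 2.54% of comparison cells, 6.86% of smooth muscle cells, 4.57% of endothelial cells and 0.823% of leukocytes. The median depths were 9877, 6104, 7733, 5280.5 and 5562 UMIs. The share of members was below that of leukocytes and is not read as expression, and its interval also holds the share of comparison cells. After thinning it was 1 of 265 (0.377%) against 1.24% of comparison cells. In libraries 5 and 6, 1 of 23 and 1 of 58 members had a *GFP* UMI, against 0.153 and 0.124% of comparison cells.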

How the data were processed

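Sorted live cells of the root and ascending part of the aorta of 6 mice were profiled by droplet single cell RNA sequencing. The authors deposited 1 matrix of UMI counts per gene and barcode, made with Cell Ranger 6 on mm10 per the submitters' processing notes (the matrix header names another version), holding 30716 barcodes and 31053 genes beside 2 added sequences. Replicate numbers of the labels could not be tied to the barcode numbers of the libraries, so no comparison of genotypes was made.

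From these counts, cells with over 1000 and under 5000 genes, over 1500 and under 25000 UMIs and under 20% mitochondrial UMIs were kept. No doublets were removed in the main comparison; the top 5% of scrublet scores per library were left out as an alternative. UMIs were summed per class and library and scaled to CPM, and log2 ratios took a prior of 0.5 UMI in the smaller sum, scaled up in the larger. A gene was compared where the mean of the 2 classes' median CPM reached 10, and called where it differed at least 2-fold in 1 direction in all 5 libraries with 10 or more members. Neighbours came from 20 principal components of 2000 variable genes without the genes of the rule. Intervals are 95% exact Clopper-Pearson and cover counting error only.

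The members, gene lists and criteria were chosen with earlier results of these data known. Genes named are the 20 largest and 12 smallest median ratios among those called, and the 2 largest and 2 smallest of each list. The markers and the 10 genes of highest variance over the mean within members are also named. Other genes, such as further list members called, were named after their values were seen. Some genes that this rule would name are not reported here. The calling step was tested on simulated counts, drawn from a single pooled profile without variation between cells or libraries. The changes drawn exceeded the 2-fold limit and lay in genes well above the minimum CPM. The simulation therefore says nothing on calls of low genes. Python 3.11.15, numpy 2.4.6, scipy 1.17.1, pandas 2.3.3 and scanpy 1.11.5 were used. Coordinates are 1-based, from GENCODE M21 (mm10), and promoter windows are from RefSeq.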

Additional observations from a re-analysis of the deposited data

Results flagged for a closer look

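The log2 ratios of 104 named genes and the medians of 17 gene lists were examined over 5 libraries for a library far from the others, by Dixon's gap against the range. Of the genes, 8 had such a library, and of the lists 0; chance flags about 1 in 20 groups of values.

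In library 3, which also had the lowest share of members among the neighbours of members, *Wnt16* was at 3.49, *Gm15594* at 1.69, *Dll1* at 1.64 and *Cavin2*, a caveolar coat gene, at -0.42, each below the other 4 libraries. In library 6, *Sfrp4* was at -5.74 and *Steap4* at -3.18, below the others, and *Tbx3* at 3.38, above them. In library 5, with 23 members, *Dpep1* was at -1.73, nearer to 0 than in the others. Without library 3, 208 genes were higher and 280 lower in members, and without library 5, 186 were higher and 291 lower. A call then asks for 4 libraries in place of 5, so larger counts are largely built in.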

How the results depend on the processing

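All 161 higher and 232 lower genes kept the sign of their median ratio in each of the 19 alternatives. This was largely fixed in advance, since a called gene was at least 2-fold apart in 1 direction in all 5 libraries. Leaving out a library could not change that sign. The counts of called genes moved. They were 70 and 112 with a minimum of 50 CPM, 71 and 120 with a prior of 5 UMI, and 403 and 571 from one sum over all libraries, which asks for no repeat in each library; without a minimum, 355 genes were lower. Leaving out each library gave a median member share of 0.578 to 1.53% (1.06% with all). It gave 170 to 208 higher genes and 244 to 291 lower genes. Such a call asks for 4 libraries in place of 5, which favours larger counts. The number of lists with a median above that of all genes compared, 6 of 17, was 3 with at least 4 gate genes, 3 in thinned cells, 2 without a minimum, 2 from one sum, and 3 to 5 with a library left out (3 without library 3). Against cartilage-like cells, 147 genes were lower in thinned cells, against 87; the cause was not tested. The comparison with valve-like cells in thinned cells was not run, since too few libraries held enough cells. The alternative with all 6 libraries was chosen after seeing the data and gave 128 and 221 genes. The ratios were taken within each library. No paired analysis was possible because, across genotypes, the barcode numbers carry no replicate number of the labels, and no result comes from a test. Libraries 1, 3 and 5 hold 9, 29 and 23 members, which limits what low genes can show there.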
